A study of Mus musculus with 6 samples.

Results

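The genes described here encode the nuclear subunits of the mitochondrial respiratory chain and ATP synthase, measured in the dorsal root ganglia (DRGs) of Meis1cko and control mice. A gene was included when a probe set listed for it alone carried a symbol beginning with Ndufa, Ndufb, Ndufc, Ndufs, Ndufv, Uqcr or Atp5, was Sdha, Sdhb, Sdhc, Sdhd or Cyc1, or followed the pattern of the Cox4 to Cox8 subunits, without regard to its values. This gave 90 of the 18193 genes that the arrays measured through at least 1 unshared probe set. They had 177 probe sets in all, and values are those of a gene's brightest probe set where no other is mentioned. They were 36 genes of complex I, 4 of complex II, 9 of complex III, 16 of complex IV and 17 of complex V, and 8 complex I assembly factors whose symbols begin with Ndufaf and which are not subunits of the finished complex. Ndufa4, which is now usually counted with complex IV, and its relative Ndufa4l2 stand under complex I by their symbols.

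The DRGs of cervical, thoracic and lumbar levels were collected at P60, at 2 months of age, from 3 Meis1cko mice, labelled Meis1 mutant, and 3 control mice. In Meis1cko mice a floxed exon of the homeobox gene Meis1 is removed by Cre recombinase expressed from the Nav1.8 promoter, which is active in nociceptors, so that other neurons, glia, vessels and connective tissue in the ganglion keep the gene. The labels call the other group control without an allele, and the study used Meis1 F/F littermates as controls in its behavioural tests. Total RNA of each mouse was hybridized to its own Affymetrix mouse genome array in 1 colour, and with 6 arrays the precision is limited by their number. In such bulk tissue, fewer cells of a type and less RNA per cell cannot be told apart.

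The respiratory chain sits in the inner mitochondrial membrane. Complex I takes electrons from NADH and complex II takes them from succinate, complex III passes them to cytochrome c, complex IV gives them to oxygen, and complex V uses the proton gradient built up on the way to make ATP. A set of the subunits of complexes I, III, IV and V is encoded by the mitochondrial genome, and the others, all of complex II included, by nuclear genes that several transcription factors of the NRF1, ETS and YY1 families regulate together. Sensory neurons have long axons and fire repeatedly, and they depend on oxidative phosphorylation for the ATP that ion pumps and axonal transport use.

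The tissue and the genotype were checked first. All 11 measured markers of DRG neurons, among them Prph, Avil and Isl1, had a mean intensity at or above the median of all probe sets, 64.8 in the authors' normalized linear units. By their brightest probe set 12178 of all 18193 genes reached that median. The brightest Meis1 probe set read 110, 144 and 90.2 in control mice and 66.0, 72.1 and 64.2 in Meis1cko mice. All 3 Meis1cko values lay below all control values, and the log2 fold change was -0.74 (SE 0.18). In limma its unadjusted p was 0.00434, and it did not pass the adjusted threshold (adjusted p = 0.999975). The study reported Meis1 RNA in fewer Runx1+ nociceptors of younger Meis1cko mice, and less Meis1 RNA in adult Meis1cko DRGs by RT-PCR. At P60 it detected Meis1 only in a small population of large neurons and no longer in nociceptors. Whether the brightest probe set lies in the deleted exon is not given in the sources used here. Dimmer Meis1 probe sets did not repeat the difference. They lay below the overall median on every array, and whether such values stand above background cannot be told. One, near or under the 25th percentile of each array, averaged 20.2 in control and 18.4 in Meis1cko mice, with overlap and a log2 fold change of -0.16. Another averaged 32.0 and 34.9, a log2 fold change of 0.13, with all Meis1cko values above all control values. The replicate 3 array of each genotype stood apart from the other 4 arrays. The log2 difference of the 3′ over the 5′ control probe sets of Actb, a measure of RNA integrity and of labelling, was 0.44 and 0.42 on those arrays and between 1.23 and 1.66 on the others.

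The chain as a whole was brightly measured, and its levels in Meis1cko DRGs stayed close to those of control DRGs. Of the 90 genes, 85 had a mean intensity at or above the median of all probe sets, where 12178 of all 18193 genes did. Above the 95th percentile of every array lay 68 of the 90. At an adjusted p under 0.05 (limma, adjusted over all probe sets), 0 of the 90 genes were called, where 0.0155% of all 45037 probe sets were. At an unadjusted p under 0.05 in limma the count was also 0, against 2.56% of all genes by their brightest probe set. None of the 177 probe sets of these genes reached either level, where 2.32% of all probe sets had an unadjusted p under 0.05. The count of called genes was again 0 with the replicates paired by number, which called 0.0822% of all probe sets, and without both replicate 3 arrays, which called 0.0577%. Log2 fold changes of Meis1cko over control ran from -0.21 for the complex I subunit Ndufa12 to 0.33 for the complex I subunit Ndufs5. The 95% interval stayed within a 1.5-fold change either way for 83 of the 90 genes, or 92.2%, against 73.0% of all 18193 genes. Intervals that reached beyond it belonged to Cox7a1, Cox7c, Cox8b, Ndufa4l2, Ndufaf8, Ndufs5 and Ndufs7.

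The direction of the small differences hung on single arrays. The log2 fold change was below 0 for 67 of the 90 genes, against 54.2% of all genes, and the median was -0.03 over the 90 genes and -0.01 over all genes. Without the replicate 3 array of Meis1cko, 39 of the 90 and 47.7% of all genes were below 0, and the median of the 90 was 0.01. Without the replicate 1 array of control, 48 of the 90 and 47.5% of all genes were below 0. The count was 71 of the 90 without Meis1cko replicate 1 (58.1% of all genes) and 64 of the 90 without Meis1cko replicate 2 (56.0% of all genes). It was 58 of the 90 without control replicate 2 (51.5% of all genes) and 71 of the 90 without control replicate 3 (61.0% of all genes). The share of all genes thus moved with the array left out as well. Without both replicate 3 arrays, 56 of the 90 and 55.0% of all genes were below 0, and the median of the 90 was again -0.03. As a share of the 90, the count lay above the share of all genes in each of these fits but the one without Meis1cko replicate 3 alone.

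**Figure D1:**
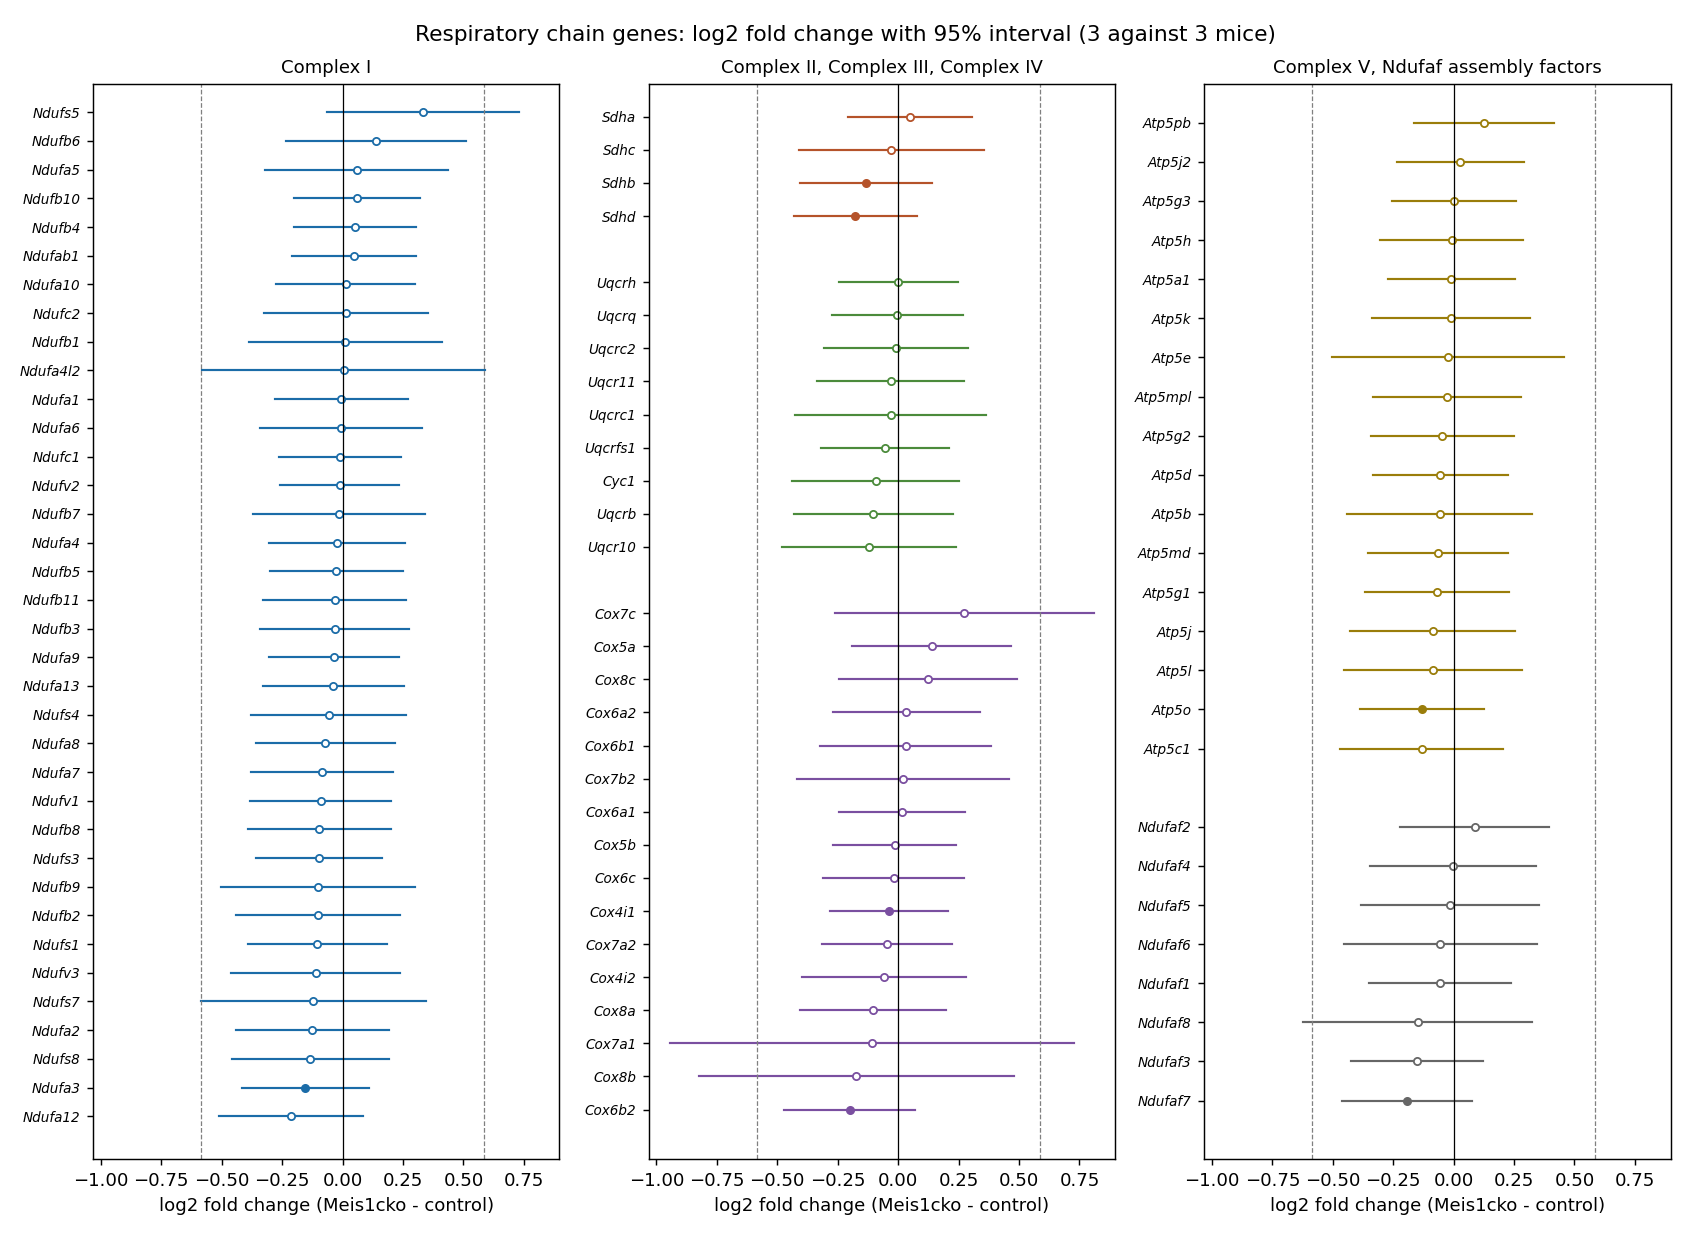
Log2 fold change of Meis1cko over control (horizontal axis) for each of the 90 genes, by complex, with points for the limma estimate and lines for its 95% interval (3 mice per genotype). Filled points mark the 7 genes whose groups did not overlap, dashed lines a 1.5-fold change. Every interval contains 0, and all points lie between -0.21 and 0.33.

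Medians by complex lay within a narrow span. They were -0.03 for complex I, -0.08 for complex II, -0.03 for complex III, -0.02 for complex IV, -0.05 for complex V and -0.06 for the Ndufaf assembly factors. The 95% intervals of all 17 complex V, all 9 complex III and all 4 complex II genes stayed within a 1.5-fold change. The median of complex II rests on 4 genes. When 1 array was left out at a time, the medians ran from -0.09 to 0.02 for complex I, from -0.07 to 0.00 for complex III, from -0.06 to 0.03 for complex IV, from -0.10 to 0.02 for complex V and from -0.16 to 0.01 for the Ndufaf genes, so that their sign and their order hung on single arrays. That of complex II stayed between -0.13 and -0.06.

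Groups did not overlap for 7 of the 90 genes, all lower in Meis1cko DRGs, and for 0 genes in the other direction. This is 7.78% of them, where 6.94% of all genes separated in either direction, 3.82% downwards and 3.12% upwards. The share was thus near the background in either direction and above it downwards, and most genes of the chain lay slightly below 0. The 7 were Sdhb and Sdhd of complex II, Ndufa3 of complex I, Cox4i1 and Cox6b2 of complex IV, Atp5o of complex V and the assembly factor Ndufaf7. The exact two-sided permutation test gave p = 0.1 for each of them, the smallest that 3 mice against 3 allow. Groups that do not overlap always give this value, so the test adds nothing to their selection. None of the 7 passed the adjusted threshold in limma.

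Promoter windows of 3 of the genes described below, from 250 bases before to 50 after the annotated start in RefSeq (GRCm38.p6), are shown. They belong to both complex II genes with non-overlapping groups and to the gene with the highest fold change. Each holds letters of factors known to act on respiratory chain genes or of Meis proteins, as do windows of other genes that are not shown. Capitals mark GCGCA, any base and then GCGC for NRF1, CCGGAAG for ETS factors and TGACAG for Meis proteins, on either strand, and none of the marked letters overlap. The windows are chr9:50603800-50604099 on the minus strand for Sdhd, chr4:140961021-140961320 on the plus strand for Sdhb and chr4:123718137-123718436 on the minus strand for Ndufs5.
Sdhd: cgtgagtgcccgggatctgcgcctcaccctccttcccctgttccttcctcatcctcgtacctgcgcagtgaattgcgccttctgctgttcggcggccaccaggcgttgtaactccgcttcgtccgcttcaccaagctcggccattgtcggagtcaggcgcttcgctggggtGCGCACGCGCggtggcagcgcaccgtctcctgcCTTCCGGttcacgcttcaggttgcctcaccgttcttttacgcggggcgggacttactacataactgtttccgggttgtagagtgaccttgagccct
Sdhb: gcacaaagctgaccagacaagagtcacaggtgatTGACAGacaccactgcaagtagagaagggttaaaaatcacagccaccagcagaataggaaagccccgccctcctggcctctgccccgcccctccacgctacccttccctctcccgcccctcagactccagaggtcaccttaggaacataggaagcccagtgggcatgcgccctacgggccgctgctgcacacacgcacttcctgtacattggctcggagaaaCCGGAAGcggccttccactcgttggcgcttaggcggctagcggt
Ndufs5: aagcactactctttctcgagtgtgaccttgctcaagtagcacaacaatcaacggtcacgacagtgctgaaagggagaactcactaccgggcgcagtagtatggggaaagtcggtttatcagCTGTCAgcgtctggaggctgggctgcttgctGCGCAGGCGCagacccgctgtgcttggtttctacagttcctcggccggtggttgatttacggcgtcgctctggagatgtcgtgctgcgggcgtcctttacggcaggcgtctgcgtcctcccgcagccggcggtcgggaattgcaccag

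In the Sdhd window the NRF1 letters begin 79 bases and the ETS letters 46 bases before the start. In the Sdhb window the Meis letters begin 216 bases before the start and the ETS letters 6 bases after it. In the Ndufs5 window the NRF1 letters begin 98 bases and the Meis letters 129 bases before the start. Windows were at hand for 73 of the 90 genes, 78 windows in all. NRF1 letters stood in 23.1% of these windows and in 6.38% of the windows of all protein-coding genes, ETS letters in 24.4% and 11.6%, and the YY1 letters AAGATGG in 14.1% and 6.24%. Meis letters, which are short, stood in 25.6% and 18.7%. Among other genes with non-overlapping groups, the window of Ndufa3 held YY1 letters, that of Atp5o NRF1 letters and that of Ndufaf7 Meis letters. The Cox6b2 window held none of these letters. These are matches of letters and show no binding.

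Complex II, succinate dehydrogenase, is the one complex with no mitochondrially encoded subunit. Sdhd, a membrane anchor of the complex, read 2915, 2805 and 3030 in control mice and 2493, 2594 and 2650 in Meis1cko mice. All Meis1cko values lay below all control values, with a log2 fold change of -0.18 (SE 0.11, 95% interval from -0.43 to 0.08). Its other probe set had a log2 fold change of -0.08, with overlapping groups. Sdhb, the iron-sulphur subunit, read 5179, 4567 and 4449 in control and 4390, 4343 and 4187 in Meis1cko mice, which gave a log2 fold change of -0.13 (SE 0.12, 95% interval from -0.41 to 0.14). The lowest control value was only just above the highest Meis1cko value. Sdha, the flavoprotein that oxidizes succinate, averaged 2650 ± 51.8 in control and 2742 ± 134 in Meis1cko mice (SD, n = 3 mice). Sdhc, the other membrane anchor, read 1178, 1198 and 1493 in control and 1220, 1095 and 1491 in Meis1cko mice, and both replicate 3 arrays held the high values.

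In complex I, Ndufs5, an accessory subunit on the intermembrane side, had the highest log2 fold change and the smallest p of the 90 genes. It read 3226, 2470 and 3667 in control and 3838, 3604 and 4230 in Meis1cko mice. The groups overlapped, since the control replicate 3 value exceeded the second Meis1cko value, although Meis1cko was higher within each replicate number. The log2 fold change was 0.33 (SE 0.17, 95% interval from -0.06 to 0.73), and limma's unadjusted p was 0.0878, its adjusted p 0.999975. Leaving out 1 array at a time, it ran from 0.17 to 0.46. In the fit that took the replicate numbers as pairs, which the labels do not state, limma's unadjusted p was 0.0212 and its adjusted p 0.611. Ndufs5 was then the 1 gene of the 90 with an unadjusted p under 0.05, where 6.99% of all probe sets had one.

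The catalytic core of complex I lay close to control levels. Ndufs1, the large iron-sulphur subunit, averaged 2656 ± 253 in control and 2465 ± 86.1 in Meis1cko mice, and Ndufv1, which binds NADH and the flavin, 4334 ± 352 and 4067 ± 295 (SD, n = 3 mice each). Ndufv2, an iron-sulphur partner of Ndufv1, averaged 5314 ± 53.6 and 5274 ± 87.9, and Ndufs3 3585 ± 174 and 3350 ± 121. For Ndufs7 and Ndufs8, which carry the last iron-sulphur clusters before ubiquinone, the log2 fold change was -0.12 (SE 0.20) and -0.13 (SE 0.14), respectively. The 6 Ndufs and Ndufv core subunits named here all had estimates below 0, each by less than its SE.

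Among accessory subunits of complex I, Ndufa3 read 6770, 5987 and 6170 in control and 5567, 5766 and 5658 in Meis1cko mice, which left the groups apart at a log2 fold change of -0.15 (SE 0.11). The next brightest probe set also separated them, at -0.10, and the dimmest, with a mean of 35.2 in control mice, gave 0.04. Ndufa12 had the lowest log2 fold change of the 90 genes, -0.21 (SE 0.13), and its probe sets disagreed. The brightest averaged 4817 in control and 4159 in Meis1cko mice, the next 3840 and 3814, and another 1898 and 2144, where all Meis1cko values lay above all control values. After Ndufa12, the probe sets of Uqcr10 (from -0.12 to 0.13), Atp5a1 (from -0.03 to 0.22) and Ndufv2 (from -0.12 to 0.08) lay farthest apart in log2 fold change among genes with several probe sets at or above the overall median. Ndufb4, at a mean of 15 in both groups, lay under the 25th percentile of every array, so its fold change carries little.

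Complex III genes all lay between -0.12 and 0.00. The log2 fold change was -0.03 (SE 0.17) for Uqcrc1 and -0.01 (SE 0.13) for Uqcrc2, the core proteins, with values of similar size for Uqcrfs1, the Rieske iron-sulphur protein, at -0.05 (SE 0.11), and for Cyc1, cytochrome c1, at -0.09 (SE 0.15). Uqcrc1 read 5078, 5050 and 5846 in control and 4666, 4614 and 6525 in Meis1cko mice, so its spread within each genotype came from the replicate 3 arrays. Uqcrb, which helps to form the ubiquinone site, averaged 11950 ± 1192 and 11147 ± 1241.

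Complex IV has tissue isoforms for several subunits, with Cox6a2, Cox7a1 and Cox8b the forms of heart and skeletal muscle and Cox6a1, Cox7a2 and Cox8a their widely expressed counterparts. Cox4i1, the common form of subunit 4, read 10189, 10044 and 10242 in control and 9879, 9956 and 9878 in Meis1cko mice. These did not overlap, yet the log2 fold change was -0.04 (SE 0.10), a difference of a few percent. Cox6a1 averaged 18996 ± 921 and 19215 ± 815, Cox7a2 11720 ± 539 and 11370 ± 705, and Cox8a 6204 ± 671 and 5761 ± 379. Cox5a, a nuclear-encoded subunit on the matrix side, averaged 10013 ± 1141 in control and 11024 ± 1148 in Meis1cko mice, and its other probe sets gave log2 fold changes of -0.02 and 0.01 beside 0.14 for the brightest. Cox5b averaged 12331 ± 582 and 12203 ± 154, and Cox6b1 11109 ± 1285 and 11361 ± 1432.

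Among isoforms of restricted expression, Cox4i2, known from lung, lay between 56.8 and 75.2 on the 6 arrays, Cox6a2 between 59.1 and 73.1, and Cox6b2, known from testis, between 53.8 and 69.0, all near the overall median of 64.8. The files hold no detection calls, so whether such values stand above background cannot be told. Cox6b2 read 69.0, 63.7 and 59.0 in control and 53.8, 55.8 and 56.9 in Meis1cko mice, without overlap and with a log2 fold change of -0.20 (SE 0.12). Cox8c, another testis form, lay above that median, with averages of 255 ± 5.26 and 282 ± 51.0. Cox7c is a common subunit, yet the brighter of its 2 probe sets read only 42.0 to 79.9, and Cox7b2 lay under the 25th percentile of every array.

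Cox7a1 had the largest SE of the 90 genes. It read 147, 164 and 91.3 in control and 195, 115 and 78.8 in Meis1cko mice, with the low value on replicate 3 of each genotype. The log2 fold change was -0.11 (SE 0.36, 95% interval from -0.94 to 0.73), and leaving out 1 array at a time it ran from -0.45 to 0.20. Cox8b read 78.9, 89.2 and 49.0 in control and 84.4, 49.8 and 57.2 in Meis1cko mice. Skeletal muscle transcripts varied over the same arrays. The summed intensity of 15 muscle markers, all 15 of them measured, was 4728, 2734 and 640.6 in control and 2545, 2034 and 992 in Meis1cko mice, and none of the 15 lay under the 25th percentile on every array. On the log2 scale all 15 were lower on the replicate 3 array than the mean of replicates 1 and 2 in both genotypes, and for 11 of the 15 both replicate 3 arrays lay below all other 4 arrays. Cox7a1 followed the order of the sum within Meis1cko mice. It did not within control mice, where replicate 2 had the highest Cox7a1 and replicate 1 the highest sum. The part of muscle RNA in these values was not tested.

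**Figure D2:**
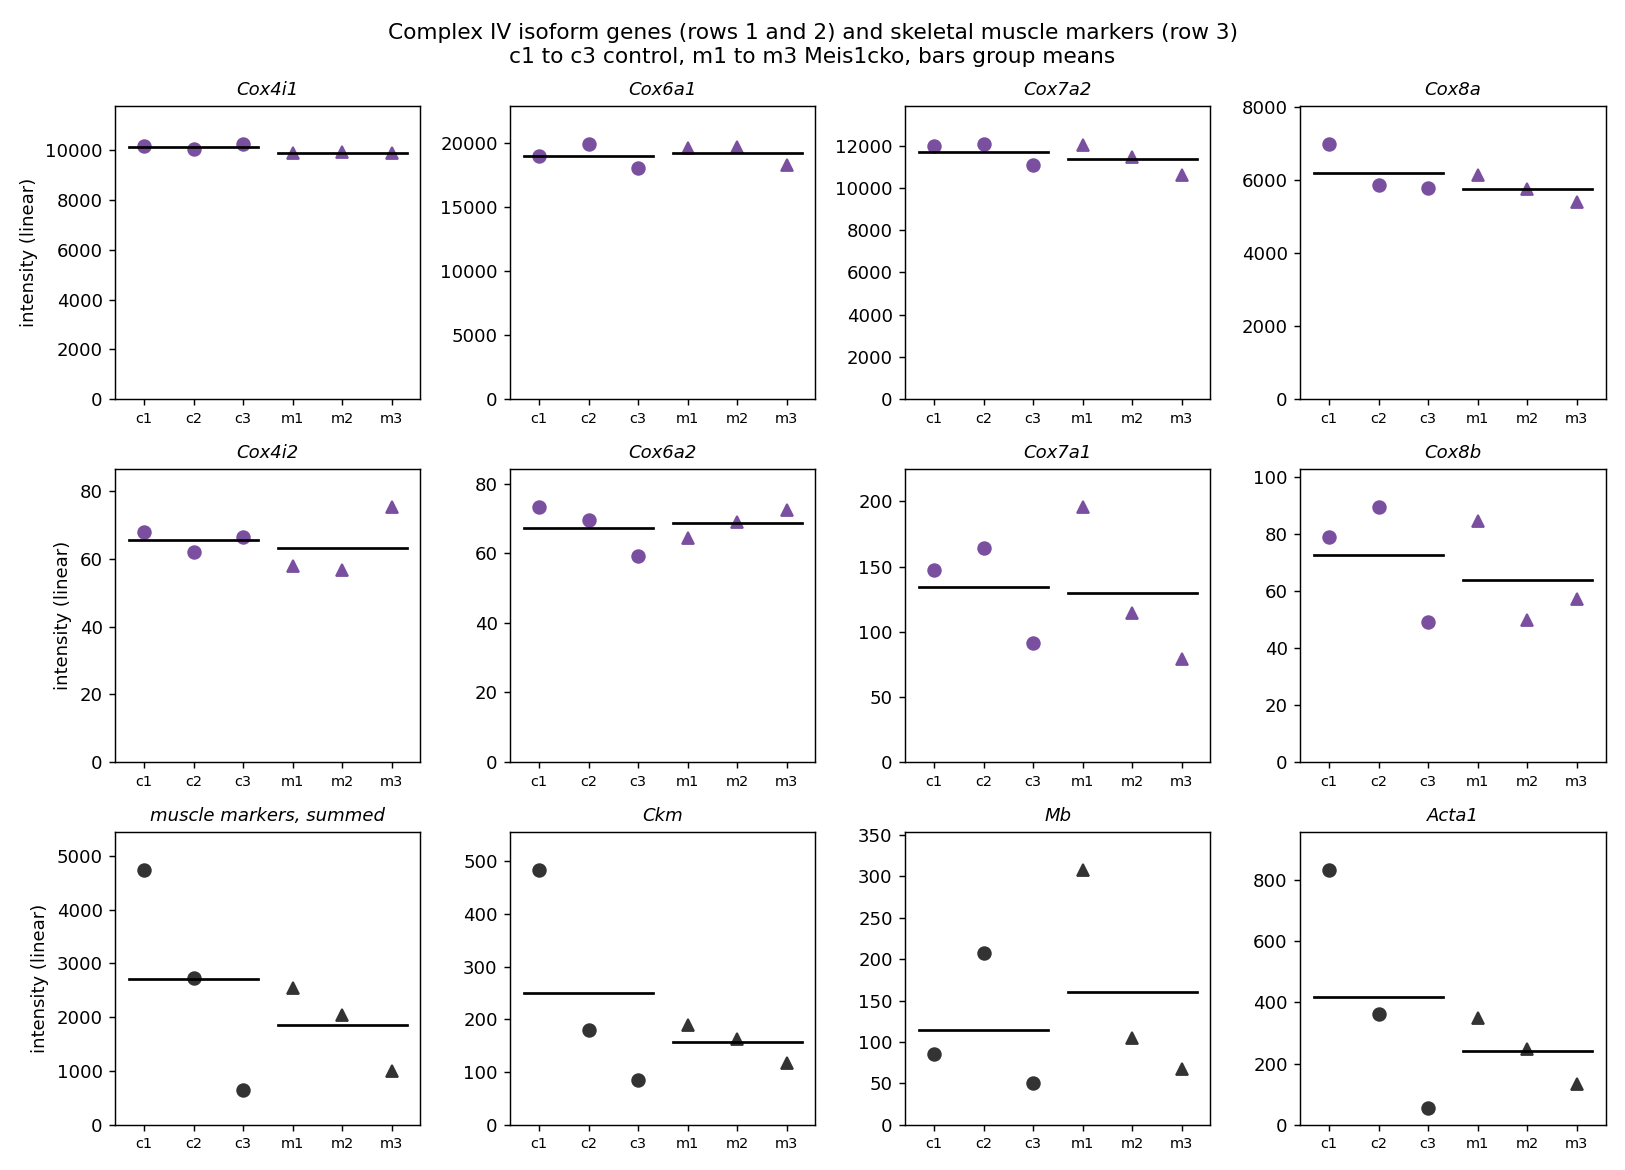
Intensity (linear, vertical axes from 0, scaled separately in each panel) of complex IV isoform genes and of skeletal muscle markers in control mice (c1 to c3, circles) and Meis1cko mice (m1 to m3, triangles), with bars at the group means. Cox4i1, Cox6a1, Cox7a2 and Cox8a vary little, while Cox7a1 runs from 78.8 to 195 and the summed muscle markers from 640.6 to 4728.

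Complex V was measured through 17 genes, all at or above the overall median. Atp5a1 and Atp5b, the alpha and beta subunits that form the catalytic head, averaged 7353 ± 255 and 8051 ± 822 in control and 7310 ± 421 and 7793 ± 1393 in Meis1cko mice. Atp5c1, the rotating gamma subunit, averaged 8166 ± 1116 and 7424 ± 618, a log2 fold change of -0.13 (SE 0.14). Atp5o, part of the stalk that holds the head still, read 5318, 5174 and 5611 in control and 5080, 4772 and 4851 in Meis1cko mice. The groups were apart by a small gap, and the log2 fold change was -0.13 (SE 0.11), with -0.10 in its second probe set, where the groups overlapped. Atp5pb, another stalk subunit, had the highest estimate of the complex, 0.13 (SE 0.12), and its other probe set gave -0.03.

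Of the 8 Ndufaf genes, 7 had estimates below 0. Ndufaf7, a mitochondrial methyltransferase, read 632, 616 and 585 in control and 575, 522 and 508 in Meis1cko mice, without overlap and with a log2 fold change of -0.19 (SE 0.11). Ndufaf3 averaged 859 ± 61.1 and 773 ± 37.4, and Ndufaf8 1224 ± 248 and 1101 ± 198, with overlap in both.

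For most genes of the chain the replicate 3 arrays differed from the other arrays of their genotype by more than the genotypes differed. Each replicate 3 shift is the log2 intensity on the replicate 3 array minus the mean of replicates 1 and 2 of that genotype. The mean of the 2 shifts was larger in size than the log2 fold change for 72 of the 90 genes, or 80.0%, against 71.8% of all genes. The median size was 0.18 for that shift and 0.06 for the fold change. On the replicate 3 arrays the median shift of the 90 genes was -0.12 in control and -0.15 in Meis1cko mice, against -0.10 and -0.08 for all genes. Lower in both genotypes were 61 of the 90 genes, or 67.8%, against 48.9% of all genes, and higher in both were 12, or 13.3%, against 24.4%. For 44 of the 90, or 48.9%, both replicate 3 arrays lay below all other 4 arrays, against 30.2% of all genes, and for 4, or 4.44%, above them, against 11.4%.

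The shift differed between genes of the same complex. After Cox7a1 (-0.77 in control and -0.93 in Meis1cko mice), shifts downwards were largest on the mean of both genotypes for Cox8b (-0.78 and -0.18), Ndufaf8 (-0.46 and -0.47), Ndufs7 (-0.46 and -0.46) and Atp5e (-0.40 and -0.45). The 4 genes above all other arrays on both replicate 3 arrays were Ndufa4l2, Uqcrc1, Atp5b and Sdhc. Atp5b, for instance, read 7473, 7688 and 8992 in control and 6469, 7664 and 9246 in Meis1cko mice. Complex II, with 2 genes lower and 2 higher in both genotypes, had median shifts of 0.03 and 0.00. The mitochondrially encoded complex I gene ND5, measured by a probe set of its own, read 4686, 4392 and 8514 in control and 4738, 4385 and 8087 in Meis1cko mice. It was thus high on both replicate 3 arrays, where most nuclear subunits were low, and its log2 fold change between genotypes was -0.02 (SE 0.32). Across the 90 genes the shifts in the 2 genotypes had a Pearson's r of 0.711 and a Spearman's rho of 0.604, against 0.665 and 0.638 across all 18193 genes. Genes are not independent replicates, and each genotype contributes a single replicate 3 array. The Actb ratios given above moved with this shift, and their part in it was not tested.

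**Figure D3:**
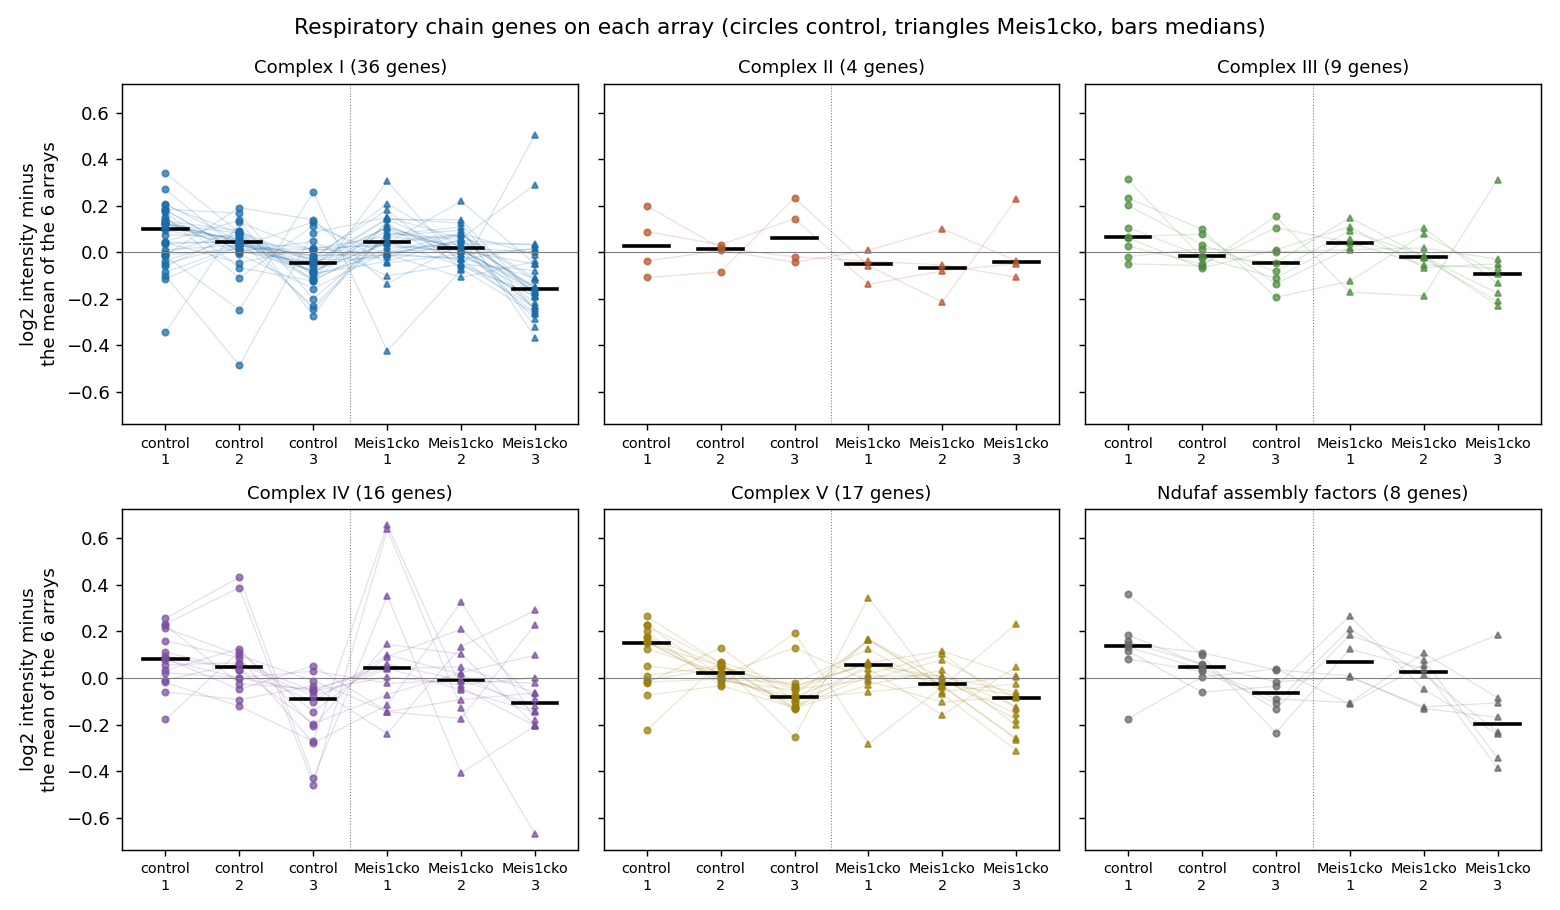
Log2 intensity of each gene minus its mean over the 6 arrays (vertical axis) on the 3 control arrays (circles) and the 3 Meis1cko arrays (triangles), by complex. Thin lines join 1 gene and thick bars are medians over the genes. Over all 90 genes the median was -0.05 on the replicate 3 array of control and -0.12 on that of Meis1cko, and between 0.00 and 0.10 on the other 4 arrays.

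**Figure D4:**
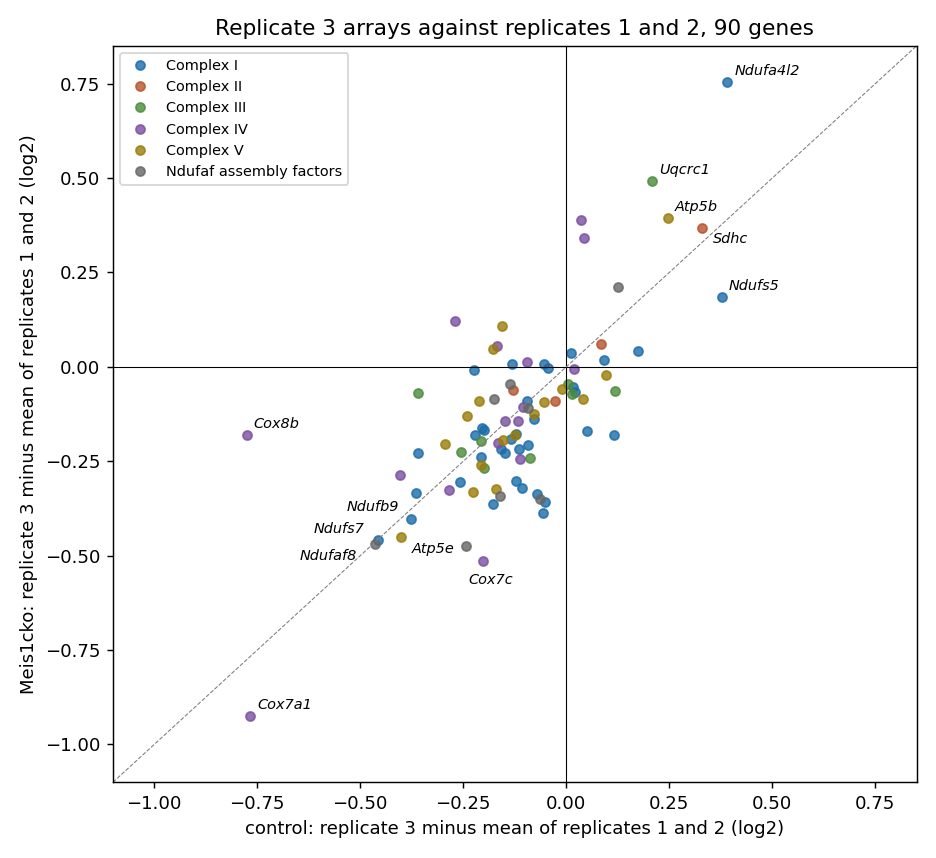
Shift of each of the 90 genes on the replicate 3 array against the mean of replicates 1 and 2, on the log2 scale, in control (horizontal axis) and Meis1cko (vertical axis), coloured by complex. The dashed line marks equal shifts. Of the 90 genes, 61 lie at the lower left of the axes and 12 at the upper right, with Cox7a1 lowest on the vertical axis and Ndufa4l2 highest.

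Among other mitochondrial genes, none of the 17 measured genes of the citric acid cycle, the 76 of the mitochondrial ribosome, the 30 assembly factors of complexes II to V, the 25 genes of mitochondrial membranes and import or the 20 regulators of mitochondrial gene expression was called in limma. At an unadjusted p under 0.05 in limma there were 2 genes of the mitochondrial ribosome, 2 regulators and 0 in the other lists. Medians of the log2 fold change were -0.03, -0.06, -0.07, -0.04 and 0.03 in that order. Of the mitochondrial ribosomal genes 64 of 76 were below 0, against 54.2% of all genes. Groups did not overlap for 9 of the 76, all lower in Meis1cko DRGs, where 3.82% of all genes separated downwards. Mrps12 averaged 1704 ± 151 in control and 1352 ± 150 in Meis1cko mice, a log2 fold change of -0.34 (SE 0.14).

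Of the 20 regulators, 13 had estimates above 0 and 7 below, where 8336 of all 18193 genes had estimates above 0. This count was not repeated with single arrays left out. Ppara and Esrrg had the smallest p of the list. Ppara, a nuclear receptor for fatty acids, read 41.7, 53.2 and 52.6 in control and 66.5, 64.3 and 65.3 in Meis1cko mice, higher in all Meis1cko mice but in a range near the overall median. Esrrg, an orphan receptor that acts on oxidative metabolism genes, read 455, 580 and 470 in control and 653, 744 and 559 in Meis1cko mice. Their log2 fold changes were 0.42 (SE 0.13) and 0.38 (SE 0.16), with limma p-values of 0.0160 and 0.0481 before adjustment and 0.999975 after it. Suclg2, a subunit of the succinyl-CoA ligase of the citric acid cycle, read 263, 268 and 245 in control and 233, 231 and 218 in Meis1cko mice, without overlap, and had a log2 fold change of -0.19 (SE 0.11).

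**Figure D5:**
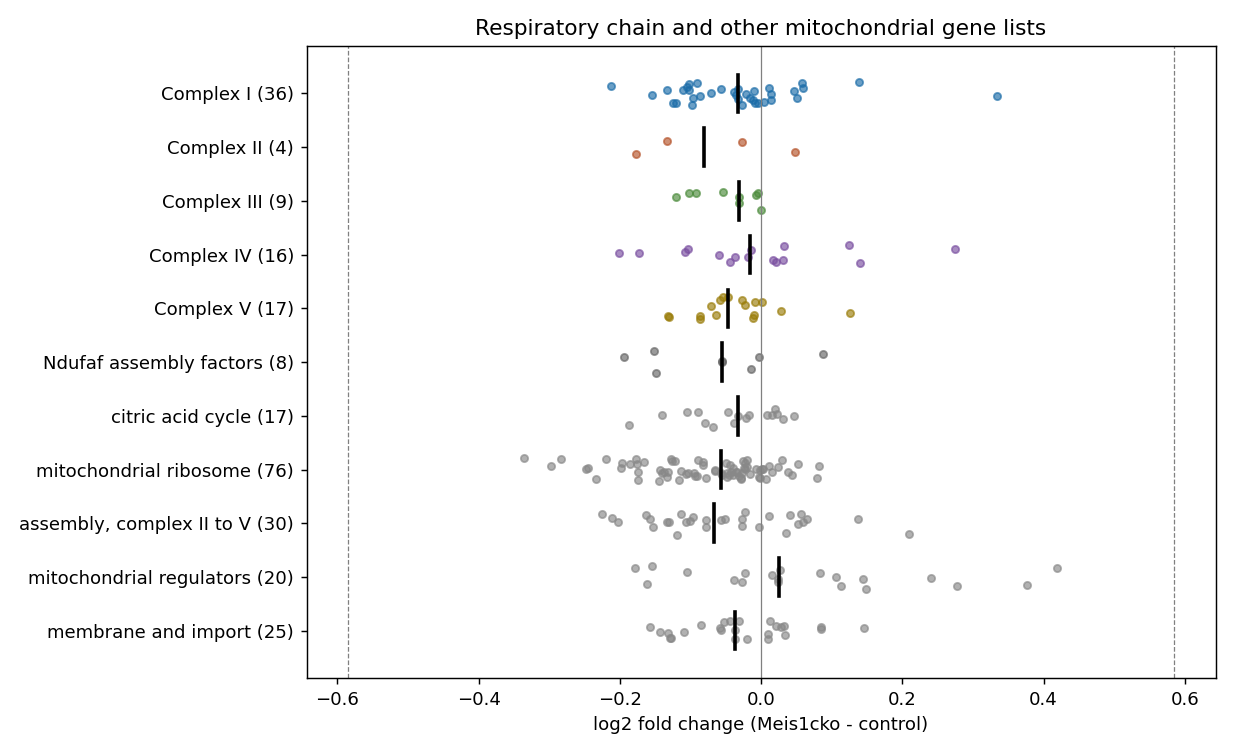
Log2 fold change of Meis1cko over control (horizontal axis) for the genes of each respiratory complex and of 5 other mitochondrial lists, with 1 point per gene, the number of genes in parentheses, bars at the medians and dashed lines at a 1.5-fold change. All medians lie between -0.08 and 0.03, and no point reaches 1.5-fold.

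Values for markers of other cells in the ganglion stand beside these. All 8 connective tissue markers had estimates below 0, with a median of -0.48, and their summed intensity was 19268, 11496 and 11535 in control and 11037, 9057 and 8525 in Meis1cko mice. Of the 8, 0 were called in limma, 4 had an unadjusted p under 0.05, and 1 was called lower with the replicates paired. The 11 measured markers of large myelinated neurons had a median of 0.07 and the 9 of glia -0.03, with 0 genes called in either in limma and 1 in each at an unadjusted p under 0.05. Medians were 0.01 over 11 neuron markers, -0.34 over 8 macrophage markers, 0.04 over 8 vessel and blood markers and -0.06 over 8 fat markers, again with 0 genes called in limma and with 1, 1, 2 and 0 genes, in that order, at an unadjusted p under 0.05. The part of cell composition in the values of the respiratory chain genes was not tested.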

How the data were processed

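Total RNA of the DRGs of 3 Meis1cko and 3 control mice was hybridized to Affymetrix arrays, 1 per mouse. The authors read the images with the GeneChip Command Console and analysed them in GeneSpring. What the authors deposited is 1 normalized intensity per probe set and array, on a linear scale. How probes were summarised and normalized is not given in the sources used here. The methods name an RNeasy kit and the labels name Trizol.

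The tests ran on 45037 of 45101 probe sets, without 64 control probe sets. The annotation pairs 34945 of the tested probe sets with 1 gene, 932 with several and 9160 with none. A gene was given by its brightest probe set (the highest mean log2 value). Of the 90 brightest probe sets, 21 carry a suffix (_s_at or _x_at) for probes that can match related transcripts, and 10 probe sets that match the symbol rule but list several genes were not used. The genotypes were compared on log2 values in limma 3.58.1 (lmFit, eBayes) under R 4.3.3, with Benjamini-Hochberg adjustment over all tested probe sets at 0.05, two-sided, without a replicate block. The code was tested on simulated data. Genes with non-overlapping groups, and only those, were given an exact permutation test, whose p of 0.1 is fixed by that lack of overlap. Labels call the samples biological replicates.

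Per genotype, the labels carry replicate numbers 1 to 3. Deviations from the group means ran together in same-numbered arrays (correlations 0.424, 0.535 and 0.766 for replicates 1, 2 and 3). Replicates 1 and 2 also ran together across numbers, at 0.337 and 0.319, while other pairs with a replicate 3 array gave -0.60 to -0.52. These values mainly set replicate 3 apart and do not show that the numbers are pairs, which the labels do not state either. The replicate block took the numbers as pairs, and the main fit did not.

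The members, gene lists and tests were chosen with earlier results of these data known. Genes named are the core subunits, the complex IV isoforms, up to 3 of smallest p in each complex, every gene with non-overlapping groups, the 4 whose probe sets differed most, and Meis1. Of the up to 2 genes of smallest p in each other list, only some are named. Genes named for an extreme replicate 3 shift or a wide interval, dim genes and ND5 were chosen after their values were seen. Promoters came from RefSeq (GRCm38.p6). Alternatives were a trend in eBayes, array weights, the methods' t-test, quantile normalization, median centring, a filter at the median, an offset of 16, the replicate block, arrays left out, other choices of probe set and subunits only.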

Additional observations from a re-analysis of the deposited data

How the results depend on the processing

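The count of 0 called respiratory chain genes held under every alternative run, the replicate block and each left-out array included. At an unadjusted p under 0.05 there were 5 of the 90 with array weights, 6 in the methods' t-test, 2 with an offset of 16, and 1 with the replicate block and without control replicate 3. With the replicate block 6.99% of all probe sets were at that level. For the other settings the share of all genes was not counted, so their counts have no background beside them. Over all probe sets the count of 7 was 177 with array weights, 0 in the methods' t-test after Benjamini-Hochberg (185 at a fold change over 1.5 and an unadjusted p under 0.05), 11 after quantile normalization, 4 with the filter at the median, 1 with an offset of 16, 37 with the replicate block and 26 without both replicate 3 arrays, and from 1 to 15 when 1 array was left out. The replicate block called 1 connective tissue marker and changed no call among the respiratory chain genes.

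The complex II median of -0.08 was -0.12 with array weights, -0.054 after quantile normalization, -0.054 with the mean of all probe sets of a gene, and from -0.131 to -0.0553 when 1 array was left out. The median of all 90 genes ran from -0.08 to 0.01 when 1 array was left out. It was above 0 without Meis1cko replicate 3, and the same array turned the medians of complexes I, IV and V and of the Ndufaf genes. Without control replicate 1 the medians of complexes III, IV and V and of the Ndufaf genes were above 0, and without control replicate 2 that of complex IV. After quantile normalization 58 of the 90 genes were below 0. The normalization was made before deposit, and the few arrays and dim probe sets without detection calls limit the rest.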
